A study of Mus musculus with 12 samples.

Results

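Chemokines are small secreted proteins that attract leukocytes, and checkpoint ligands are surface or secreted proteins that restrain T cells, natural killer cells or macrophages on contact. A tumour cell that makes both sends opposing signals to the immune cells around it. The 10 genes described here were a fixed list of such signals in melanoma cells, taken by gene symbol from 55487 genes in each count table: the chemokines Cxcl10, Ccl5, Ccl2, Cxcl9 and Cxcl16, the macrophage growth factor Csf1, and the ligands Cd274, Cd47, Lgals9 and Pvr. All 10 symbols matched a mouse gene identifier. No cutoff on a measured value set membership, but the list was chosen with earlier results of these data known. In GENCODE release M21 on GRCm38, all 10 are protein-coding genes. The Cxcr3 ligands are neighbours on chromosome 5, with Cxcl10 (ENSMUSG00000034855) at chr5:92346638-92348889 (minus strand) and Cxcl9 (ENSMUSG00000029417) at chr5:92321347-92328079 (minus strand). Chromosome 11 carries Ccl2 (ENSMUSG00000035385) at chr11:82035571-82037453 (plus strand), Ccl5 (ENSMUSG00000035042) at chr11:83525778-83530518 (minus strand), Cxcl16 (ENSMUSG00000018920) at chr11:70453983-70459984 (minus strand) and Lgals9 (ENSMUSG00000001123) at chr11:78962974-78984946 (minus strand). The others are Csf1 (ENSMUSG00000014599) at chr3:107741048-107760469 (minus strand), Pvr (ENSMUSG00000040511) at chr7:19903578-19921160 (minus strand), Cd47 (ENSMUSG00000055447) at chr16:49800533-49915010 (plus strand) and Cd274 (ENSMUSG00000016496) at chr19:29367455-29388095 (plus strand).

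The cells were B16F10, a pigmented mouse melanoma line, grown in culture with no other cell type added. They expressed a short hairpin RNA, either a control (shCtr) or the hairpin numbered 2 that targets Osgep (shOSGEP), and no other genotype, drug or time point distinguished the groups. Cells for ribosome profiling were treated briefly with cycloheximide, which halts elongation, before lysis. Osgep encodes the enzyme that places t6A, a threonine-bearing modification, beside the anticodon of the tRNAs that read codons starting with A, called ANN codons. Ribosome-protected fragments (RPF) and total RNA were sequenced from 3 replicates of each genotype, which gave 12 libraries in 4 groups of 3. A single line and a single hairpin were used here, so hairpin and gene loss cannot be told apart. Levels are given as CPM, counts per mega (M) counts of a library size scaled by edgeR's TMM method. In a bulk culture, fewer cells making a transcript and less transcript per cell cannot be told apart.

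The libraries of shOSGEP replicate 1 stood apart from the others. Osgep RNA was left at 4.25% of its paired control in replicate 1 but at 44.0% and 44.4% in replicates 2 and 3, while Osgep RPF stood at 63.1%, 52.3% and 50.1%. The summed RNA of 7 melanocyte markers was 2655 CPM in shOSGEP replicate 1 and 9665 to 16837 CPM in the other 5 total RNA libraries, with all 7 detected in both genotypes. Protein-coding genes took only 15.6% of the counts of the shOSGEP replicate 1 RPF library and 29.8% to 48.6% in each further RPF library. The summed RNA of 12 immune cell markers was 0.666 to 0.847 CPM in shCtr and 0.581 to 1.44 CPM in shOSGEP, and Cd3e, Cd3d, Cd8a, Ncr1, Itgam, Itgax and C1qa had no read in any total RNA library. The summed RNA of 8 stromal markers was 15.1 to 21.3 CPM in shCtr and 17.5 to 61.7 CPM in shOSGEP, with Cdh5 and Epcam at 0. Among the stromal markers, the collagen gene Col1a1 had 66, 30 and 26 RNA reads in shCtr and 987, 48 and 159 in shOSGEP (log2 change 3.07, unadjusted p = 0.0277 in edgeR). The part of these differences in the results below was not tested. The fitted changes in total RNA and RPF, and the counts of gene lists in total RNA, are therefore also given without replicate 1 of both genotypes.

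The coding sequences of these genes differed widely in how often they use the codons that depend on t6A. ANN codons read out as isoleucine, methionine, threonine, asparagine, lysine and parts of the serine and arginine boxes. Across 21438 mouse coding genes the median share of ANN codons was 27.7%, with quartiles at 24.0% and 30.8%. Cxcl9 held 46.0% ANN codons, a share above that of 99.9% of coding genes, Cxcl10 held 42.9% (above 99.5%) and Ccl2 held 39.2% (above 98.6%). Cd47 held 33.0%, Pvr 30.6%, Cd274 30.3%, Lgals9 28.9%, Ccl5 28.6%, Csf1 27.0% and Cxcl16 23.2%. High ANN content therefore set apart 3 of the 5 chemokines, and Ccl5 and Cxcl16 lay near or below the median gene. Of the 58 ANN codons of Cxcl9, 22 were lysine codons, whereas threonine led in Ccl2 with 18 of 58 and isoleucine in Cxcl10 with 11 of 42. The longest unbroken run of ANN codons was 7 in Cxcl9, Ccl2 and Cd47, 5 in Cxcl10, Pvr and Csf1, 4 in Ccl5 and Lgals9, and 3 in Cxcl16 and Cd274.

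**Figure D1:**
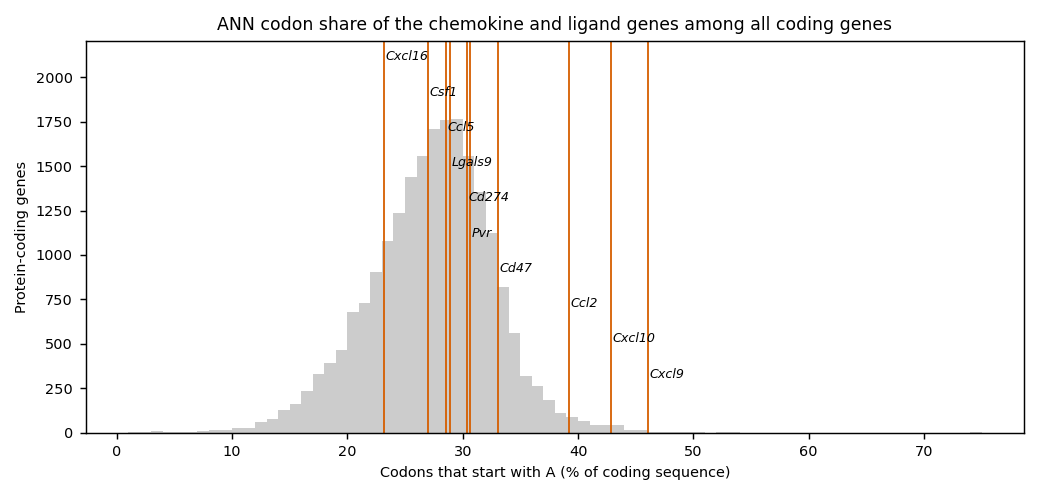
Histogram of the percentage of ANN codons over 21438 mouse coding genes, in bins 1 percentage point wide, with a vertical line at each of the 10 genes. Cxcl9, Cxcl10 and Ccl2 sit in the right tail at 46.0%, 42.9% and 39.2%, while the other 7 lie between 23.2% and 33.0%.

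The coding sequences of the 3 chemokines richest in ANN codons are shown beside that of Ccl5, whose share is ordinary, so that the spacing of these codons can be read directly. Each is read in frame from the start codon, 5′ to 3′ on the coding strand, with ANN codons in capitals. Sequences and positions follow GENCODE release M21 on GRCm38: Cxcl10 lies at chr5:92347370-92348814, Cxcl9 at chr5:92323802-92328023 and Ccl5 at chr11:83525980-83530461, all on the minus strand, and Ccl2 lies at chr11:82035662-82037175 on the plus strand. Introns are spliced out. Cxcl10 and Ccl5 are whole without the stop codon, with 98 and 91 codons, while Ccl2 and Cxcl9 are cut after codon 100 of 148 and 126.
Cxcl10: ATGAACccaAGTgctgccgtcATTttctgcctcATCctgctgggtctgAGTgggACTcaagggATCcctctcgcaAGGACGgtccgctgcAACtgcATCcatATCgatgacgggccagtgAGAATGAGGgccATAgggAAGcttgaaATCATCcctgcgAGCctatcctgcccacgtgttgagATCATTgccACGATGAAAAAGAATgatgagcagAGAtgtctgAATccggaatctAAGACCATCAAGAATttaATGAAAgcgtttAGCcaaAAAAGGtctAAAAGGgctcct
Ccl2: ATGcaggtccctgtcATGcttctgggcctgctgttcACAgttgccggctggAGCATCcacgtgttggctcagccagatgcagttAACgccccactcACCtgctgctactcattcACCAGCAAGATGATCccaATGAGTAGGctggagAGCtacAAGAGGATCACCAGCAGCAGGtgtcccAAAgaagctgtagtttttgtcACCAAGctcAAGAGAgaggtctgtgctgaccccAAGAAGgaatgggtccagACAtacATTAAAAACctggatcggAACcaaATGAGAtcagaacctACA
Cxcl9: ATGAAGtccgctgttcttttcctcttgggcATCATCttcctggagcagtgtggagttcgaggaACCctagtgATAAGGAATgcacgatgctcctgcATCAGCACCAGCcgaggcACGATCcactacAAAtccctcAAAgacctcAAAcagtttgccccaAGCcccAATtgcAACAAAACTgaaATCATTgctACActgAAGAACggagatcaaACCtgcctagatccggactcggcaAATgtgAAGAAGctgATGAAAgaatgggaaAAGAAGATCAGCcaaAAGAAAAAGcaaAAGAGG
Ccl5: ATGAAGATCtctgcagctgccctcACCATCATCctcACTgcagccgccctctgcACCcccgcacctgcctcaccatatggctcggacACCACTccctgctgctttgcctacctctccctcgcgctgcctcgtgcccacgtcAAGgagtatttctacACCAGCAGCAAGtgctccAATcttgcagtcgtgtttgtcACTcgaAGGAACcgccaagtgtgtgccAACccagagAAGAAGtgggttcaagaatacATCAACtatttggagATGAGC
In Cxcl9 the 26 codons after codon 100 were 61.5% ANN, against 42.0% in the first 100. In Ccl2 they were 38.0% before codon 100 and 41.7% after it.

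In control cells the 10 genes spanned levels from undetectable to moderate. To compare genes, total RNA was expressed as CPM per kb of exon (mean ± SD, n = 3). Lgals9, which encodes the checkpoint lectin galectin-9, was highest at 27.4 ± 1.72 CPM per kb. It was followed by Csf1 at 16.04 ± 7.97, Cd47 at 9.92 ± 0.811, Cxcl10 at 6.56 ± 4.76, Pvr at 5.44 ± 0.984, Ccl5 at 5.29 ± 3.39, Cd274 at 3.18 ± 0.221 and Ccl2 at 2.39 ± 2.80. Only Lgals9 was separate from its neighbour in that order (lowest library 25.5, against at most 22.4 for Csf1), and the libraries of every other pair of neighbours overlapped. Cxcl16 and Cxcl9 had 0 to 3 total RNA reads in each shCtr library, at or under the limit of 3 reads that a count of 0 allows, and neither could be compared between genotypes.
The order depends on transcript length. The length of the transcript that has the longest coding sequence was also used in place of all exons. Cd47 then became the highest at 60.3 CPM per kb and Lgals9 followed at 36.9. That Cd47 transcript is 1032 bases long with 1026 coding bases, against 6276 exon bases over all Cd47 transcripts. Its short length raises the Cd47 level per kb, so this rank of Cd47 is not a reliable alternative. Footprints, expressed as CPM per kb of coding sequence, gave 16.5 ± 7.57 for Lgals9, 15.6 ± 8.14 for Csf1, 11.8 ± 2.79 for Cd47, 6.75 ± 5.71 for Cxcl10, 6.07 ± 2.17 for Pvr, 4.70 ± 0.697 for Cd274, 3.09 ± 2.41 for Ccl5 and 1.15 ± 1.76 for Ccl2. The footprint order placed Cd274 above Ccl5 and otherwise matched that of total RNA.

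**Figure D2:**
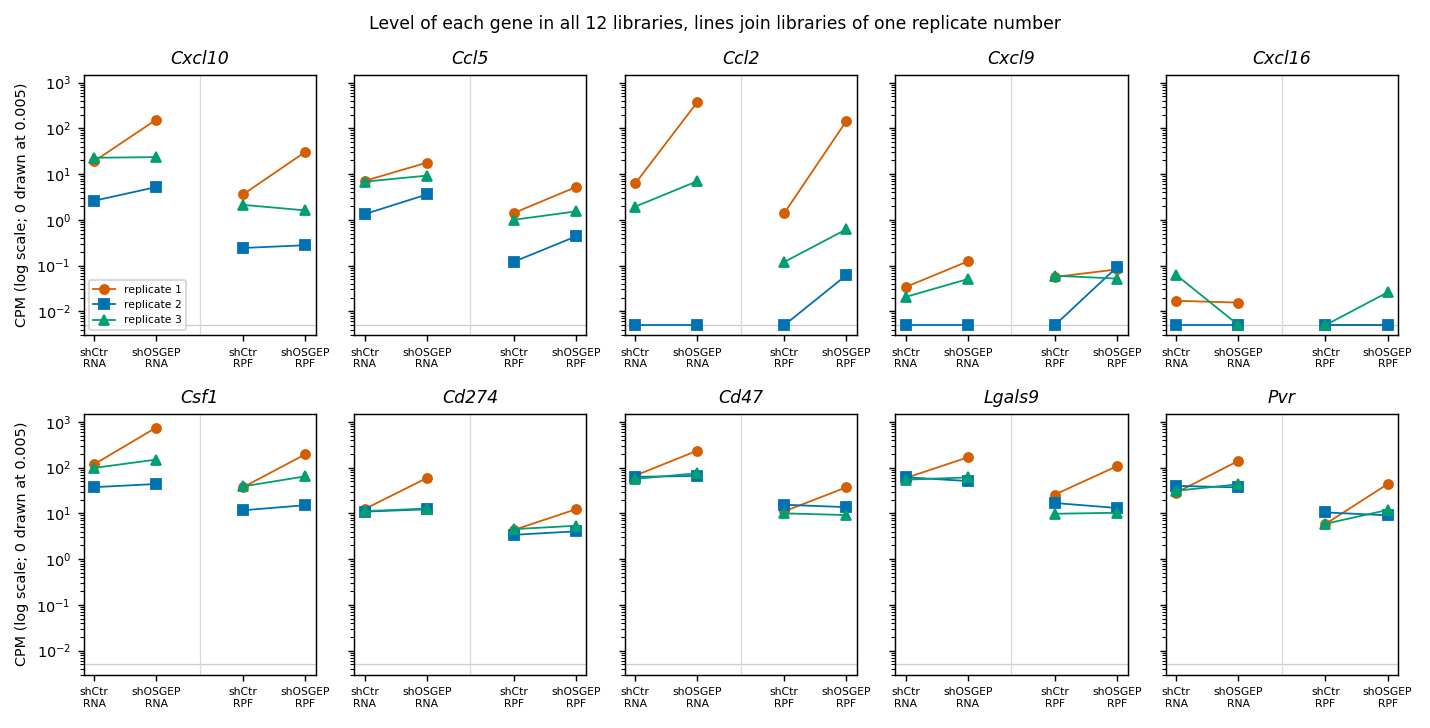
CPM (log scale) of the 10 genes in shCtr and shOSGEP total RNA and RPF libraries. Lines join the libraries of a replicate number, and libraries with no read are drawn at 0.005 CPM. Replicate 1 is higher in shOSGEP than in shCtr for every tested gene, replicate 2 lies lowest for Cxcl10, Ccl5, Ccl2 and Csf1 in both genotypes, and the control libraries of Cd274, Cd47 and Lgals9 RNA coincide.

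Whether loss of Osgep changed these transcripts was assessed first in total RNA, where 8 of the 10 genes passed the filter on low counts. All 8 had higher mean levels in shOSGEP than in shCtr, by log2 changes of 0.67 to 5.54, but none passed the test. The adjusted p was 0.975 for each of the 8 (edgeR quasi-likelihood test, Benjamini-Hochberg over 14516 genes), and 0 of 14516 genes passed at all (0% called). This test used genotype only and not the pairing by replicate number. In it, none of the 8 had an unadjusted p under 0.05 with a higher level, against 1.52% of all genes. Across all genes, 53.1% had a log2 change above 0, and the median change was 0.02 against 1.22 for the 8 genes. Without replicate 1, 7 of the 8 had a log2 change above 0, with a median of 0.20, against 49.2% of 14468 genes.

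Cxcl10 draws activated T cells and natural killer cells through the receptor Cxcr3 and is a classical interferon-induced gene. Its total RNA counts were 1116, 145 and 1101 in shCtr replicates 1 to 3 and 10012, 403 and 1390 in the matching shOSGEP libraries. In CPM these were 19.0, 2.61 and 22.8 against 155, 5.21 and 23.5. The shOSGEP level was higher 8.17-fold in pair 1 (95% counting interval 7.68 to 8.70), 1.99-fold in pair 2 (1.64 to 2.43) and 1.03-fold in pair 3 (0.953 to 1.12). The groups overlapped, since shOSGEP replicate 2 lay below 2 of the 3 control libraries. Fitted over all libraries, the log2 change was 2.05 ± 1.24 (SE), and 0.17 without replicate 1.

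Ccl5, also known as RANTES, attracts T cells, monocytes and dendritic cell precursors. Its RNA counts were 417, 74 and 330 in shCtr and 1146, 277 and 548 in shOSGEP. The change was the most even of the chemokines, 2.50-fold (2.24 to 2.81), 2.68-fold (2.07 to 3.52) and 1.36-fold (1.18 to 1.56) in pairs 1 to 3. Even so the groups overlapped, since shOSGEP replicate 2 stood at 3.58 CPM and shCtr replicates 1 and 3 at 7.09 and 6.82 CPM. The fitted log2 change was 1.00 ± 0.75 (SE). With the replicate number as a block the change was 1.06 ± 0.27 (SE), with an adjusted p of 0.721 in edgeR. Without replicate 1 it was 0.65.

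Ccl2, or MCP-1, recruits monocytes through Ccr2. Its RNA counts were 366, 0 and 94 in shCtr and 24216, 0 and 415 in shOSGEP, the widest range of the 10 genes. Pair 1 differed 60.3-fold (54.4 to 67.0) and pair 3 differed 3.61-fold (2.88 to 4.56), and pair 2 gave no ratio because both libraries had no read. A count of 0 allows up to 0.0540 CPM in shCtr replicate 2 and 0.0388 CPM in shOSGEP replicate 2, while the other 4 libraries held 1.94 to 375 CPM. The transcript was thus undetectable in replicate 2 of both genotypes. On the log2 scale the fit gave 5.54 ± 2.72 (SE), and 1.85 without replicate 1.

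Csf1 encodes the growth factor that macrophages need to survive and divide. Its RNA counts were 6944, 2077 and 4772 in shCtr and 48613, 3396 and 8874 in shOSGEP. It was higher 6.38-fold (6.22 to 6.54), 1.17-fold (1.11 to 1.24) and 1.52-fold (1.47 to 1.57) in pairs 1 to 3, yet shOSGEP replicate 2 at 43.9 CPM lay below shCtr replicates 1 and 3 at 118 and 98.6 CPM. Its fitted log2 change was 1.90 ± 0.98 (SE), and 0.51 without replicate 1.

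Cd274 encodes PD-L1, the ligand that engages PD-1 on T cells. Its RNA counts were 730, 606 and 541 in shCtr and 3822, 950 and 755 in shOSGEP. In CPM the controls were nearly equal at 12.4, 10.9 and 11.2, and shOSGEP replicates 2 and 3 at 12.3 and 12.8 lay beside them, with replicate 1 at 59.2. The change was 4.77-fold (4.40 to 5.17) in pair 1 and 1.12-fold and 1.14-fold in pairs 2 and 3. Fitted over all libraries it was 1.29 ± 0.62 (SE) on the log2 scale, and 0.17 without replicate 1.

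Cd47 encodes the signal that keeps macrophages from engulfing a cell by way of Sirpa. Its RNA counts were 3935, 3496 and 2750 in shCtr and 15193, 5091 and 4465 in shOSGEP, with changes of 3.52-fold (3.40 to 3.64), 1.04-fold (1.00 to 1.09) and 1.33-fold (1.27 to 1.39). Only shOSGEP replicate 2, at 65.8 CPM, fell within the control range of 56.8 to 66.9 CPM. Its log2 change was fitted at 1.01 ± 0.48 (SE), and 0.23 without replicate 1.

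Lgals9 RNA counts were 3494, 3422 and 2636 in shCtr and 10848, 3940 and 3619 in shOSGEP. It was higher 2.83-fold (2.72 to 2.94) in pair 1, lower in pair 2 at 0.826-fold (0.789 to 0.865) and 1.12-fold higher (1.07 to 1.18) in pair 3. Its fitted log2 change was the smallest of the 8, 0.67 ± 0.44 (SE), and turned to -0.06 without replicate 1.

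Pvr encodes the poliovirus receptor homologue CD155, which can either activate lymphocytes through CD226 or restrain them through Tigit. Its RNA counts were 1676, 2224 and 1516 in shCtr and 9099, 2857 and 2557 in shOSGEP. The changes were 4.95-fold (4.69 to 5.21), 0.921-fold (0.871 to 0.974) and 1.38-fold (1.29 to 1.47). Like Lgals9, Pvr lay lower in shOSGEP in pair 2. The fitted log2 change was 1.15 ± 0.52 (SE), and 0.16 without replicate 1.

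The remaining chemokines were barely present. Cxcl9, a further Cxcr3 ligand, had 2, 0 and 1 RNA reads in shCtr and 8, 0 and 3 in shOSGEP. Cxcl16, the membrane-anchored ligand of Cxcr6, had 1, 0 and 3 against 1, 0 and 0. A difference in either gene was not detectable at this depth.

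Counted by pair, 5 of the 8 tested genes (Ccl5, Cd274, Cd47, Csf1 and Cxcl10) had higher RNA in shOSGEP in all 3 pairs, against 17.7% of all genes. The largest of the 3 pair changes lay in replicate 1 for 7 of the 8, all but Ccl5, against 70.1% of all genes. The median change over the 8 genes was 2.28 on the log2 scale in pair 1, 0.12 in pair 2 and 0.42 in pair 3, while the median over all genes stayed within 0.01 of 0 in each pair. The spread of all genes also differed by pair, with 90% of genes within 1.57 in pair 1, 0.66 in pair 2 and 0.62 in pair 3. The level of the 8 genes in replicates 2 and 3 of shOSGEP was therefore within the range most genes covered, apart from Cxcl10 and Ccl5 in pair 2 and Ccl2 in pair 3.

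**Figure D3:**
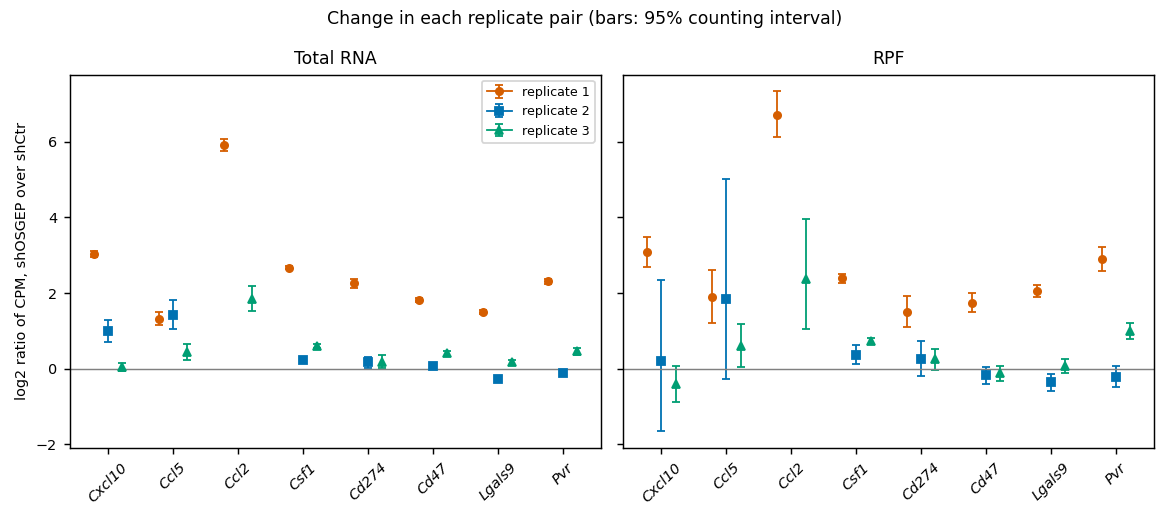
Log2 ratio of CPM, shOSGEP over shCtr, in each replicate pair for the 8 tested genes, in total RNA and in RPF. Bars show the 95% counting interval, which covers counting error only, and pair 2 of Ccl2 has no point because a library had no read. Pair 1 is the highest point for every gene but Ccl5 RNA, and pairs 2 and 3 lie near 0 for Cd274, Cd47 and Lgals9.

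Footprints on the same transcripts were examined next, and 8 of the 10 genes were again tested. All 8 had a positive log2 change, 0.71 to 6.67, against 54.9% of all genes, and the median was 1.50 against 0.05 for 13529 genes. None passed the test, with an adjusted p above 0.99 for each in edgeR, and 0 of 13529 genes passed (0% called). Ccl2 (unadjusted p = 0.0473) and Pvr (unadjusted p = 0.0467) were higher at p under 0.05 in edgeR before adjustment, against 0.754% of all genes. When the filter on low counts was left out, 229 of 33633 genes passed in edgeR (0.681% called), including Ccl2 (adjusted p = 1.0e-33) and Cxcl10 (adjusted p = 0.0019). In that fit the SE of the Ccl2 log2 change was 0.51, against 2.78 with the filter. The shOSGEP reads of both genes lay mostly in replicate 1, with 1768, 2 and 24 for Ccl2 and 371, 9 and 62 for Cxcl10.

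RPF counts of Cxcl10 were 64, 4 and 106 in shCtr and 371, 9 and 62 in shOSGEP, a change of 8.50-fold (6.50 to 11.3) in pair 1, 1.15-fold (0.321 to 5.11) in pair 2 and 0.757-fold (0.544 to 1.05) in pair 3. Pair 2 rested on few reads and its interval spanned both directions. The fitted log2 change of 2.42 ± 1.60 (SE) turned to -0.38 without replicate 1.

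Ccl5 had 25, 2 and 50 RPF reads in shCtr and 63, 14 and 59 in shOSGEP. As in total RNA it was higher in all 3 pairs, 3.69-fold (2.29 to 6.13), 3.57-fold (0.821 to 32.4) and 1.53-fold (1.03 to 2.27). The interval of pair 2 included no change. The fitted log2 change was 1.46 ± 1.09 (SE), and 0.72 without replicate 1.

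Ccl2 had 25, 0 and 6 RPF reads in shCtr and 1768, 2 and 24 in shOSGEP. Pair 1 differed 104-fold (70.0 to 161) and pair 3 differed 5.18-fold (2.06 to 15.5). The 2 footprints in shOSGEP replicate 2 are within the limit that a count of 0 allows. The fitted log2 change was 6.67 ± 2.78 (SE), and without pair 1 the gene did not pass the filter. Without shOSGEP replicate 1 alone the change turned to -0.54. That fit kept shCtr replicate 1, the control with the most reads, and neither pair 2 nor pair 3 was lower in shOSGEP. Some genes with 0 RNA reads also had footprints. Epcam had 14, 14 and 34 RPF reads in shCtr and 52, 17 and 10 in shOSGEP. Cd3e had 9, 4 and 7 against 6, 16 and 3, while Cd3d and C1qa had 0 in each RPF library. Footprint counts of Ccl2 in pair 3, and of Cxcl10 and Ccl5 in pair 2, were of similar size. The source of such reads was not tested.

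Csf1 had 665, 193 and 1944 RPF reads in shCtr and 2376, 488 and 2490 in shOSGEP. It was higher 5.24-fold (4.80 to 5.71), 1.29-fold (1.09 to 1.53) and 1.66-fold (1.56 to 1.76). Among the genes with over 100 footprints in each library, Csf1 alone had every pair's interval above 1. Its log2 change was fitted at 1.64 ± 0.89 (SE), and 0.63 without replicate 1.

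The ligands split in pairs 2 and 3. Cd274 had 77, 56 and 226 RPF reads in shCtr and 149, 131 and 207 in shOSGEP, with changes of 2.84-fold, 1.19-fold and 1.19-fold. Cd47 had 197, 255 and 499 against 451, 442 and 355, and was higher 3.36-fold in pair 1 but stood at 0.885-fold and 0.921-fold in pairs 2 and 3. Lgals9 had 458, 278 and 490 against 1306, 424 and 398, with 4.18-fold, 0.779-fold and 1.05-fold. Pvr had 104, 173 and 296 against 529, 293 and 458, with 7.45-fold, 0.865-fold and 2.00-fold. Without replicate 1 the fitted log2 changes were 0.23 for Cd274, -0.16 for Cd47, -0.19 for Lgals9 and 0.34 for Pvr.

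Cxcl9 had 1, 0 and 3 RPF reads in shCtr and 1, 3 and 2 in shOSGEP, and Cxcl16 had a single read in the 6 RPF libraries. By pair, 4 of the 8 tested genes were higher in RPF in all 3 pairs, namely Ccl5, Cd274, Csf1 and Ccl2, the last resting on 2 reads against 0 in pair 2, and 15.6% of all genes were. All 8 had their largest pair change in replicate 1, against 59.9% of all genes. Pair medians over the 8 genes were 2.22, 0.20 and 0.41 on the log2 scale. With replicate number as a block the fitted log2 changes in RPF were 0.46 to 5.45 and in total RNA 0.46 to 3.98, and no gene of the list passed.

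The 8 genes fell into separate patterns over the 6 total RNA libraries. Cxcl10, Ccl5, Ccl2 and Csf1 were lowest in replicate 2 of either genotype, whereas Cd274, Cd47 and Lgals9 hardly varied over the controls, with coefficients of variation of 6.97%, 8.18% and 6.27% (Pvr 18.1%), against 49.7% to 117% for the first 4. When the sum of squares of log2 CPM was divided, replicate number took 68.8% to 85.6% and genotype 7.50% to 20.7% in the 3 chemokines and Csf1. In the 4 ligands replicate number took 21.5% to 43.0% and genotype 15.6% to 33.1% in total RNA. The split did not hold for Lgals9 in RPF, where replicate number took 73.9% and genotype 6.24%. Pvr was the only one of the 8 in which genotype took the larger share in total RNA, 33.1% against 21.5%, and in RPF, 39.9% against 16.8%. The medians over all genes in total RNA were 60.8% for replicate number and 12.3% for genotype, and in RPF 68.1% and 8.45%. These shares are descriptive, since both groupings include shOSGEP replicate 1.

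**Figure D4:**
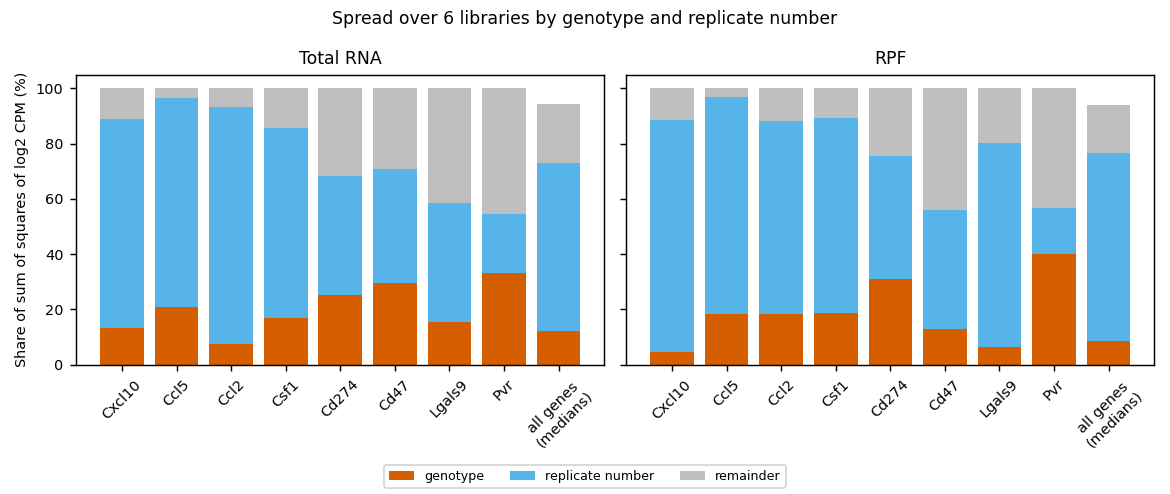
Percentage of the sum of squares of log2 CPM over 6 libraries taken by genotype, by replicate number and by the remainder, in total RNA and in RPF. The bars for all genes stack 3 separate medians and so end under 100%. Replicate number fills most of the bar in Cxcl10, Ccl5, Ccl2 and Csf1, and in RPF also in Lgals9. The genotype share is widest in Pvr at 33.1% and 39.9%.

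As a description over 6 total RNA libraries, which share the contrast of shOSGEP replicate 1, log2 CPM of Cd274 and Cd47 correlated at r = 0.99, Cd274 and Lgals9 at 0.98, Csf1 and Cxcl10 at 0.98 and Ccl2 and Cxcl10 at 0.97. Between the 4 genes that were lowest in replicate 2 and the 4 ligands the correlations ran from 0.53 for Ccl5 and Pvr to 0.88 for Csf1 and Cd274, and the lowest within either set was 0.91, for Ccl5 and Csf1. Among 10218 genes with a mean of at least 5 CPM, those most like Csf1 were Axl, Myof and Kcnh2 (r = 0.997 to 0.998). Axl, a receptor kinase of dedifferentiated melanoma cells, stood at 28.4, 7.48 and 27.6 CPM in shCtr and 230, 9.79 and 41.7 CPM in shOSGEP. The closest to Cd274 were Slc25a22, Apol9b and Osbpl9, and the closest to Lgals9 were St3gal2, Rnf11 and Saa3. Saa3, an acute phase gene, was at 0.186 to 0.289 CPM in shCtr and at 261, 0.0646 and 0.422 CPM in shOSGEP. Kremen1, Parp11 and Itgb5 were closest to Cd47, Bmpr2, Sacm1l and Pofut2 to Pvr, Crebzf, Ccdc9b and Des to Cxcl10, Gas7, Vdr and Ift81 to Ccl5, and Nova2, Ahnak and Vamp5 to Ccl2.

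Translational efficiency compares RPF with total RNA, and its change was read from the assay by genotype interaction. None of the 8 genes passed (adjusted p = 1.00 for each in edgeR, 12560 genes, 0% called) and none had an unadjusted p under 0.05. The fitted log2 changes were -0.48 ± 0.82 (SE) for Cd274, -0.30 ± 0.77 for Cd47, -0.26 ± 1.41 for Csf1, 0.34 ± 2.11 for Cxcl10, 0.38 ± 0.87 for Pvr, 0.42 ± 1.35 for Ccl5 and 0.64 ± 1.11 for Lgals9. Ccl2 gave 1.18 ± 3.76, a value that rests in replicate 2 on 0 RNA reads. Neither of the detected genes richest in ANN codons, Cxcl10 and Ccl2, had a lower efficiency beyond its error, and with these errors a change of 2-fold in either direction lay within 1 SE for both.
Within pairs, Cd47 was the only gene of the 8 whose log2 ratio of RPF to RNA was lower in shOSGEP in every pair, at -2.58, -2.02 and -2.50 in shCtr against -2.66, -2.26 and -3.02, as in 11.2% of all genes. Ccl2 alone was higher in every pair, as in 11.6% of all genes, and its pair 2 rested on 0 RNA reads. In pair 1 Cd274, Csf1 and Cd47 had a smaller shOSGEP over shCtr ratio in RPF (2.84, 5.24 and 3.36) than in RNA (4.77, 6.38 and 3.52). Lgals9, Pvr, Ccl2, Ccl5 and Cxcl10 had a larger one (4.18, 7.45, 104, 3.69 and 8.50 against 2.83, 4.95, 60.3, 2.50 and 8.17). These ratios come from single libraries. Pair 1 also had the widest spread of efficiency changes over all genes. On the log2 scale 90% of genes lay within 0.97 in pair 1, against 0.68 and 0.73 in pairs 2 and 3. In pairs 2 and 3 the direction was the opposite for Cd274, whose log2 ratio went from -1.66 to -1.58 and from -1.29 to -1.23, and for Csf1, which went from -1.67 to -1.53 and from -1.34 to -1.21. It was also the opposite for Lgals9, from -1.87 to -1.95 and from -2.46 to -2.56. Cxcl10 reversed as well, from -3.07 to -3.90 in pair 2 and from -3.38 to -3.81 in pair 3. Pair 2 of Cxcl10 rested on 4 and 9 footprints. Ccl5 went from -2.82 to -2.84 in pair 2 and from -2.67 to -2.54 in pair 3. Pvr went down in pair 2, from -1.92 to -2.01, and up in pair 3, from -2.39 to -1.86.

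In control cells the ratio of RPF to RNA ranked low for several of the genes, and the rank depended on the length it was divided by, an alternative added after the values were seen. Cxcl10 had a log2 ratio of -2.94 ± 0.52 (SD, n = 3), lower than in all but 0.973% of 11310 coding genes, with Ccl5 at 2.15%, Cd47 at 3.57% and Pvr at 5.99% of genes lower. Footprints fall on coding sequence, while RNA reads fall on all exons, and coding bases made up 13.1% of the exon bases of Cxcl10, 16.5% of Cd47 and 20.0% of Pvr, against a median of 34.6%. Per coding and exon length, 41.4% of genes were lower than Cxcl10, 51.7% lower than Cd47 and 47.3% lower than Pvr. Ccl5 remained low with 11.5% of genes below it, and Lgals9 stood at 10.2%. The lengths of the transcript that has the longest coding sequence were used as well. The share of genes lower was then 18.4% for Cxcl10, 23.1% for Pvr, 10.8% for Lgals9, 3.76% for Ccl5 and 0.743% for Cd47. By these lengths Cd47, Cxcl10 and Pvr ranked lower than by all exons. The Cd47 rank rests on a transcript of 1032 bases with 1026 coding bases, against 6276 exon bases, and is not a reliable alternative.

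The promoters were searched for the letters of factors known to act on such genes, since the chemokines and Csf1 varied together. RefSeq windows on GRCm38.p6 (250 bases before to 50 after the annotated start) were found for Cxcl10, Cxcl9, Cd274, Cd47, Lgals9 and Csf1, that is for 6 of the 10 genes, and were not found for Ccl5, Ccl2, Cxcl16 and Pvr. Both strands were read for the interferon-stimulated response element (ISRE), written GAAANNGAAA, and for the NF-kB consensus. Of 32851 windows of the same length, 3.44% held the ISRE and 4.51% the NF-kB letters. Cxcl10 had an ISRE at -213 and NF-kB matches at -159 and -103, Lgals9 had an ISRE on the opposite strand at -55 and at 15, and Csf1 had an NF-kB match on the opposite strand at -154, with positions counted from the annotated start to the first base of the match. Neither motif was found in the windows of Cxcl9, Cd274 and Cd47. The 250 bases before the start are shown for the 3 genes with matches, 5′ to 3′ on the strand of the gene, with matches in capitals. They lie at chr5:92348890-92349139 for Cxcl10, chr11:78984925-78985174 for Lgals9 and chr3:107760470-107760719 for Csf1, all on the minus strand.
Cxcl10: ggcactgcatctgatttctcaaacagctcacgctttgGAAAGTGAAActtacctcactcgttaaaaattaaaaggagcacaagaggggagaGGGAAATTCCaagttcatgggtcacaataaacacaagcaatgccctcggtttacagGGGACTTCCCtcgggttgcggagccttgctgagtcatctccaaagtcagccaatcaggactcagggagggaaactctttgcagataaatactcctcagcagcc
Lgals9: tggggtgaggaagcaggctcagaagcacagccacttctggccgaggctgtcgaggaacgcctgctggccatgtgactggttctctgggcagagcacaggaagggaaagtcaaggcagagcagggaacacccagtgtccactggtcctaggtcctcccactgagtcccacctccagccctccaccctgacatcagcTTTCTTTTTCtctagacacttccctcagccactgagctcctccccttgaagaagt
Csf1: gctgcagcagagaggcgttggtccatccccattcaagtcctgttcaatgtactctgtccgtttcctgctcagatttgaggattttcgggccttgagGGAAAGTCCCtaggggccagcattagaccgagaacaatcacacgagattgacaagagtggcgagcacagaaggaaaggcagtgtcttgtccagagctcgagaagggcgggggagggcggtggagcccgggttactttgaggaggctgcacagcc
The ISRE and both NF-kB matches of Cxcl10 stand close together before the start, and the Csf1 window holds NF-kB letters with no ISRE. These matches describe letters and not bound sites.

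Genes of the same pathways were counted from fixed lists, also chosen with earlier results of these data known. In each list 0 genes passed in total RNA, in RPF or in translational efficiency. Of 32 other chemokines, 7 were tested in total RNA, and all 7 had a higher level in shOSGEP (median log2 change 1.01), against 53.1% of all genes. Without replicate 1 they were 5 of 6, with a median of 0.46, against 49.2% of all genes. The neutrophil attractants Cxcl1 and Cxcl2 followed the pattern of Cxcl10, with 1373, 7 and 823 and with 212, 0 and 220 RNA reads in shCtr against 22100, 26 and 1651 and against 2141, 2 and 365. Ccl7, which shares receptors with Ccl2, had 1, 0 and 0 reads against 417, 0 and 4. Cx3cl1, or fractalkine, had 132, 160 and 196 reads against 411, 422 and 315. Its log2 changes in RNA were 1.49, 0.91 and 0.39 in pairs 1 to 3, so pair 1 was again the largest. The fitted log2 change was 0.90 in total RNA (unadjusted p = 0.0202 in edgeR, adjusted p = 0.975). In RPF it was 0.28 (unadjusted p = 0.623 in edgeR), with pair 2 at -0.13.
Among 26 other checkpoint ligands, 10 were tested and 7 were higher, with a median log2 change of 0.15. Without replicate 1 only 3 of the 10 were higher, and the median turned to -0.13. Nectin2, which shares receptors with Pvr, had a log2 change of 0.50, Cd276 (B7-H3) 0.27 and the NKG2D ligand Raet1d -0.18. Of 22 cytokines that act on myeloid cells, 13 were tested and 10 were higher (median 0.44), which became 7 of 12 (median 0.12) without replicate 1. Vegfa had a log2 change of 1.16 (unadjusted p = 0.0336 in edgeR), Tgfb3 2.16 and Lif 2.52, whereas Mif, the most abundant of them, had -0.09. Lif RNA counts were 229, 68 and 148 against 2573, 81 and 363, again lowest in replicate 2.
Of 17 receptors and binding partners of these signals, 4 passed the filter and were tested, with 1 higher, and 2 higher without replicate 1. Sirpa, the receptor for Cd47, was itself abundant at 64.5 CPM per kb and had a log2 change of -0.26, and Thbs1, a secreted ligand of Cd47, had 2.34 (unadjusted p = 0.0286 in edgeR). Cxcr3 and Havcr2, receptors for Cxcl10 and Lgals9, were tested with log2 changes of -0.30 and -0.09.
Factors known to act upstream of such chemokines were tested for 17 of 19 genes, and 16 of the 17 were higher (median 0.81), which became 11 of 17 (median 0.07) without replicate 1. The most abundant, Rela, Nfkbia and Jun, had log2 changes of 0.02, 0.52 and -0.01. Of 8 enzymes and partners that process or stabilise the 10 proteins, 7 were tested and 5 were higher, with and without replicate 1. Adam10, which sheds Cxcl16, had a log2 change of 0.20, Adam17 0.41 and Cmtm6, which stabilises PD-L1, 0.16.

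Overlapping genes could have shared reads with the list, because the use of strand in counting was not stated. Art3, on the strand opposite to Cxcl10, had 65, 103 and 96 RNA reads in shCtr and 351, 120 and 82 in shOSGEP, beside 145 to 10012 reads on Cxcl10. Zmynd15, opposite to Cxcl16, had 1 to 7 RNA reads. Gm17268 over Ccl2 and AC119228.1 over Cd274 had no RNA read. Gm16184 and Gm16251 over Pvr had at most 1 read in any total RNA library and at most 2 in any RPF library.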

How the data were processed

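Ribosome-protected fragments (RPF) and total RNA of B16F10 cells were deposited by the authors as whole-number read counts per Ensembl gene, without normalisation. Per the submitters' processing notes, reads were handled with FastQC 0.11.9, Trim Galore 0.6.6, cutadapt and STAR, and both GRCm38 and GRCm39 are named. The study's methods align footprints to the mouse coding transcriptome and keep perfect matches. They also map the footprints again to the GRCm38 genome for an analysis of ribosome stalling. Which of these alignments, if either, gave the RPF counts is not stated. Protein-coding genes held 15.6% to 48.6% of the counts of each RPF library, so the counts are not limited to coding genes. Its RNA sequencing methods name a TruSeq kit and Salmon for data deposited apart from these, and whether they cover these tables is not stated. The counting tool behind the tables and its use of strand are not given in the sources used here. Genes were named from GENCODE release M21 on GRCm38, in which 55141 of 55487 identifiers matched. Total counts ranged from 12.9 to 40.3 M for RPF and from 46.7 to 81.1 M for total RNA, where M is mega.

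The 10 genes and the comparison lists were chosen with earlier results of these data known. Groups and replicate numbers came from the sample labels. The study's methods describe separate transductions for its experiments. The labels do not tie these libraries to them, so p-values measure only the spread between these samples. Counts were fitted in edgeR 4.0.16 (R 4.3.3) by the quasi-likelihood test after filterByExpr and TMM scaling, separately for RPF and total RNA and with shCtr as the reference. Translational efficiency was the interaction of assay and genotype over 12 libraries. The Benjamini-Hochberg adjustment ran over all genes tested, with a threshold of 0.05. Log2 CPM used a prior count of 2. Pair ratios are ratios of CPM with exact 95% intervals that cover counting error only, since amplified reads are not independent molecules.

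Same-numbered libraries deviated together from their group means. For replicates 1 to 3, total RNA gave r = 0.52, 0.54 and 0.29, and RPF gave 0.59, 0.51 and 0.66. Numbers were therefore treated as pairing the samples where ratios are given by pair. The main tests did not use the pairing, and a fit with the replicate number as a block was an alternative. From each pathway list, but not the marker lists, the text names the genes at an unadjusted p under 0.05 and the 3 with the highest RNA level per kb, and, for each gene tested, the 3 genes of highest correlation. Alternatives were DESeq2 1.42.0, RLE factors, other filters, lengths and thresholds (log2 change over 0.5 at unadjusted p under 0.05), and leaving out each library or pair. A further promoter motif that was searched is not reported here.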

Additional observations from a re-analysis of the deposited data

How the results depend on the processing

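No gene passed in RPF, total RNA or translational efficiency in the main analysis, and 0 passed whenever any library or replicate pair was left out (0 to 0). DESeq2 called 8 genes in total RNA and 1 in RPF, the replicate block called 1 in total RNA, and leaving out the filter called 229 in RPF. The looser thresholds of log2 change and unadjusted p passed 223 genes in total RNA, 139 in RPF and 17 in translational efficiency. The replicate block changed no call among the 10 genes. DESeq2 gave no adjusted p for Ccl2. The cause of these differences was not tested. Over 383 alternative values of the 24 log2 changes of the tested genes, 355 kept direction and call, 4 passed a threshold (Ccl2 and Cxcl10 in RPF without the filter, Ccl2 and Pvr in RPF under the looser thresholds) and 24 changed sign, of which 22 came from leaving out a library or pair. The other 2 came from the replicate block, which gave a change in translational efficiency of 0.018 for Csf1 and -0.10 for Cxcl10. Leaving out libraries or pairs moved the log2 change in total RNA from -0.053 to 2.86 for Cxcl10 and from -0.072 to 1.00 for Lgals9. In RPF it ranged from -1.09 to 3.11 for Cxcl10, from -0.54 to 9.16 for Ccl2, from -0.16 to 1.12 for Cd47 and from -0.59 to 1.78 for Lgals9. In translational efficiency it ranged from -1.03 to 0.77 for Cxcl10, from -0.14 to 0.61 for Ccl5, from -0.82 to 2.08 for Ccl2, from -0.64 to 0.076 for Cd274, from -0.51 to 1.02 for Lgals9 and from -0.38 to 0.23 for Csf1. The reversals came from fits without shOSGEP replicate 1 or pair 1, except that the Cxcl10 efficiency also reversed without shCtr replicate 3. Without pair 1, Ccl2 RPF could not be fitted, since it failed the filter. Depth limits Cxcl9 and Cxcl16 in both assays, and Cxcl10, Ccl5 and Ccl2 in RPF replicate 2.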
